A study of Caenorhabditis elegans with 8 samples.

Results

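The 5 genes described here encode the core of the cortical machinery that positions the mitotic spindle in the Caenorhabditis elegans embryo: goa-1 (C26C6.2), gpa-16 (Y95B8A.5), gpr-1 (F22B7.13), gpr-2 (C38C10.4) and lin-5 (T09A5.10). They were taken by sequence name from a table of 21774 genes, and all 5 were found and all 5 passed the filter on low values, which 11935 genes passed. Polyadenylated RNA had been sequenced from sperm, oocytes and embryos of 1 or 2 cells, with 2 libraries in each group, to follow the transition from oocyte to embryo. The labels of all 8 libraries name the same strain, TX189 carrying OMA-1::GFP, and 24 °C as the temperature. The collection protocol instead names N2 hermaphrodites, cut open so that oocytes could be picked by hand, as the oocyte source. For sperm it names males of a fog-2(q71) background, whose sperm were filtered through nylon mesh and activated with Pronase. The 1-cell embryos were sorted by fluorescence, and the collection of 2-cell embryos was not described in the sources used here, so strain, handling and stage cannot be told apart. Nothing states whether the libraries of a group came from separate cultures, so the p-values measure only the spread between these libraries, which may be technical. The fit pools that spread over the 4 groups and moderates it across all tested genes. A standard error is thus not the spread of 1 gene within the compared groups.

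GOA-1 and GPA-16 are alpha subunits of heterotrimeric G proteins, and in the early embryo they sit at the membrane with largely overlapping roles. In their GDP-bound form they bind the GoLoco protein GPR-1 or GPR-2, which in turn holds LIN-5, a coiled-coil protein related to NuMA of mammals. LIN-5 recruits the motor dynein to the cortex, and dynein there pulls on the astral microtubules. Stronger pulling from the posterior cortex shifts the first spindle off centre, so that the first division is unequal. The Gbeta and Ggamma subunits GPB-1 and GPC-2 bind the alpha subunits when the pulling complex does not, RIC-8 is needed for the alpha subunits to act, and RGS-7 speeds their GTP hydrolysis.

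Each value below is the RPKM of a gene, its reads relative to transcript length and to the mapped reads of the library, as deposited. RPKM are relative to the other transcripts of the same library, and in bulk samples fewer cells of a type and less RNA per cell cannot be told apart. Differences are on the log2(RPKM + 1) scale and were tested with limma's moderated test, and a call needed both an adjusted p below 0.05 and a log2 difference of 1 or more in size. The table gives no counts. Steps between low values pointed to roughly 17.6 to 70.0 M reads in the embryo and sperm libraries and gave no depth for the oocyte libraries. At those depths the fewest reads behind an embryo or sperm value of the 5 genes were about 426, for gpr-1. That is a counting error of about 4.85%, which covers counting only. Of all genes, 2.48 to 2.93% stood at 0 in the oocyte libraries and 12.7 to 29.4% in the others, and the part of this difference in the comparisons with oocytes was not tested.

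The oocyte and sperm groups matched their labels by the summed RPKM of 10 oocyte markers and 10 sperm markers. Both sums overlapped between the 1-cell and 2-cell stages. The oocyte markers summed to between 19440 and 20440 RPKM in oocytes and to between 202 and 844 in sperm. At the 1-cell stage they summed to 2231 and 3451, and at the 2-cell stage to 1525 and 2713. The sperm markers summed to between 11670 and 15730 RPKM in sperm, 1.40 and 4.41 in oocytes, 80.2 and 81.3 at the 1-cell stage, and 49.2 and 96.4 at the 2-cell stage. Markers of older embryos summed to 8.18 and 11.1 RPKM in oocytes, 36.7 and 41.8 at the 1-cell stage and 43.0 and 53.7 at the 2-cell stage. The sperm libraries also held markers of other tissues: 6 body wall muscle genes summed to 706 and 1150 RPKM there and to between 1.38 and 5.89 in the other groups, and unc-54, a muscle myosin heavy chain, stood at 240 and 215. Somatic gonad markers summed to 54.02 and 65.7 RPKM and intestine markers to 72.5 and 116 in sperm. Their part in the sperm values of the 5 genes was not tested.

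The 2 alpha subunits had their highest mean RPKM in oocytes, although for gpa-16 sperm and oocytes were not called different. goa-1 stood at 134 and 142.1 RPKM in the oocyte libraries, 20.95 and 53.3 at the 1-cell stage, 36.7 and 81.7 at the 2-cell stage, and 24.3 and 16.3 in sperm. Every embryo and sperm library was below both oocyte libraries, and the sperm values lay around the lower 1-cell value. In its level goa-1 ranked on average above 91.6% of the tested genes in oocytes and above 69.3% in 1-cell embryos.

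gpa-16 stood at 68.4 and 93.1 RPKM in oocytes, 19.4 and 6.93 at the 1-cell stage, 28.3 and 7.31 at the 2-cell stage, and 61.6 and 38 in sperm. All 4 embryo libraries lay below all oocyte and sperm libraries. The mean was 80.7 ± 17.5 RPKM (SD, n = 2) in oocytes against 13.2 ± 8.84 (SD, n = 2) in 1-cell embryos, a ratio of 6.13. For goa-1 the means were 138 ± 5.68 (SD, n = 2) and 37.1 ± 22.9 (SD, n = 2), a ratio of 3.72.

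Both alpha subunits passed the test between 1-cell embryos and oocytes, where 5.92% of all tested genes were called lower. goa-1 fell by 2.01 on the log2 scale (SE 0.54, 95% interval -3.27 to -0.75, adjusted p = 0.0338). gpa-16 fell by 2.67 (SE 0.68, interval -4.24 to -1.09, adjusted p = 0.0283), while the median of all tested genes was 0.35 higher in the 1-cell embryo. With 2 libraries against 2 an exact permutation test cannot go below a two-sided p of 0.333, so these calls rest on the spread shared across genes. The calls of goa-1 and gpa-16 were each lost when either oocyte library or either sperm library was left out. That of goa-1 was also lost without 1-cell replicate 1 (log2 -1.36) and that of gpa-16 without 1-cell replicate 2 (log2 -1.98). Without either oocyte library nearly all calls over all tested genes in this comparison were lost too.

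**Figure D1:**
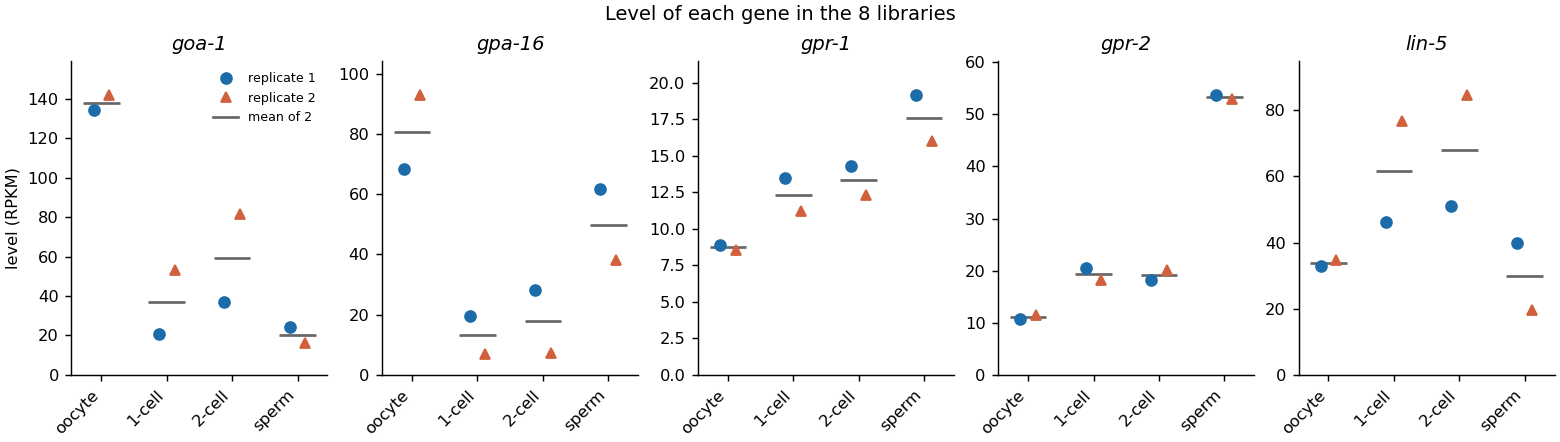
Level of each of the 5 genes in RPKM (vertical axis, linear, with its own range for each gene) in the 8 libraries, grouped by stage. Points are libraries and lines mark the group means. goa-1 and gpa-16 are lower in all 4 embryo libraries than in both oocyte libraries, and gpr-2 is highest in both sperm libraries, at 53.8 and 53.0 RPKM.

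From the 1-cell to the 2-cell stage neither alpha subunit passed the test. goa-1 differed by 0.69 (SE 0.54, interval -0.57 to 1.96, adjusted p = 1.00) and gpa-16 by 0.29 (SE 0.68, interval -1.28 to 1.87, adjusted p = 1.00). In this comparison limma called 0.0168% of all genes and none of the 5 genes, none of which had an unadjusted p under 0.05 either.

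Against oocytes the 2-cell embryos gave the same order of values, and 5.17% of all genes were called lower. gpa-16 fell by 2.37 (SE 0.68, interval -3.95 to -0.80, adjusted p = 0.0424). goa-1 differed by -1.32 (SE 0.54, interval -2.58 to -0.05, adjusted p = 0.118) and was not called, although its groups did not overlap. Without 2-cell replicate 2 the gpa-16 difference was -1.47 and its call was lost. That call was also lost without either oocyte or either sperm library. Without either oocyte library nearly all calls over all tested genes were lost here too.

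The embryo libraries of these genes were far apart within a stage, and in opposite directions. For goa-1 the library numbered 2 was 2.54 times that numbered 1 among 1-cell embryos and 2.23 times among 2-cell embryos. For gpa-16 the library numbered 1 was 2.81 times that numbered 2 among 1-cell embryos and 3.87 times among 2-cell embryos. Of all tested genes, 9.09% had 1-cell libraries and 2.15% had 2-cell libraries at least as far apart as those of gpa-16. For goa-1 these shares were 10.32% and 10.65%. The same library numbers thus stood on the same side at both stages. Between same-numbered libraries goa-1 was 1.75 and 1.53 times as high at the 2-cell as at the 1-cell stage, and gpa-16 1.46 and 1.06 times.

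The balance of the alpha subunits differed between embryo libraries of a stage. The ratio of gpa-16 to goa-1 RPKM was 0.510 and 0.655 in oocytes, 0.927 and 0.130 at the 1-cell stage, 0.770 and 0.0895 at the 2-cell stage, and 2.54 and 2.33 in sperm. gpa-16 exceeded goa-1 in both sperm libraries and in none of the other 6. Their sum was 202 and 235.2 RPKM in oocytes, 40.4 and 60.2 at the 1-cell stage, 65.0 and 89.0 at the 2-cell stage, and 85.9 and 54.3 in sperm.

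In sperm the alpha subunits parted. goa-1 was lower than in oocytes by 2.73 on the log2 scale (SE 0.54, interval -3.99 to -1.47, adjusted p = 0.00272), a ratio of mean RPKM of 6.81, and this call held under every alternative tried. Between sperm and oocytes 24.6% of all genes were called lower and 36.7% higher. gpa-16 differed from oocytes by -0.71 (SE 0.68, interval -2.29 to 0.87, adjusted p = 0.393) and was not called.

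gpa-16 was higher in sperm than in 1-cell embryos by 1.96 (SE 0.68, interval 0.38 to 3.54, adjusted p = 0.0313), in a comparison that called 35.3% of genes higher and 33.2% lower. This call was lost without 1-cell replicate 2 (log2 1.27, adjusted p = 0.156) and without either sperm library. Against 2-cell embryos the difference was 1.66 (adjusted p = 0.0560), which missed the threshold here and passed it in 9 of 20 alternatives, with adjusted p from 0.00974 to 0.334. goa-1 in sperm differed from 1-cell embryos by -0.72 (adjusted p = 0.261) and from 2-cell embryos by -1.42 (SE 0.54, adjusted p = 0.0450), where 34.8% of genes were called higher and 34.6% lower. The latter call was lost without 2-cell replicate 2 (log2 -0.85), without either sperm library, without either oocyte library, with median-of-ratios or quantile scaling and with the length trend removed, among others.

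By mean RPKM the order for goa-1 was oocyte, 2-cell embryo, 1-cell embryo and sperm, and for gpa-16 oocyte, sperm, 2-cell embryo and 1-cell embryo. No neighbours in either order were called different, apart from sperm and 2-cell embryo for gpa-16 under those alternatives. goa-1 is abundant in neurons and other tissues of the worm, and gpa-16 exons share bases with an annotated small nucleolar RNA gene on the same strand, Y95B8A.18, which was not in the table. Reads from that gene could not be separated here.

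gpr-1 and gpr-2 were lowest in oocytes and highest in sperm. They are close relatives that encode nearly identical proteins, each with 4 exons and a coding length of 1575 nt in the WBcel235 annotation, so how shared reads were divided between them is uncertain. gpr-1 stood at 8.90 and 8.57 RPKM in oocytes, 13.5 and 11.2 at the 1-cell stage, 14.3 and 12.3 at the 2-cell stage, and 19.2 and 16.04 in sperm. gpr-2 stood at 10.7 and 11.5 RPKM in oocytes, 20.4 and 18.2 at the 1-cell stage, 18.2 and 20.0 at the 2-cell stage, and 53.8 and 53.0 in sperm. For both genes every embryo library was above both oocyte libraries and every sperm library above all embryo libraries, and libraries of a group stayed within about 1.2-fold of each other.

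The embryo values of both genes were not called against oocytes. In 1-cell embryos gpr-1 differed by 0.45 (SE 0.32, interval -0.29 to 1.19, adjusted p = 0.359) and gpr-2 by 0.75 (SE 0.30, interval 0.04 to 1.45, adjusted p = 0.111). In 2-cell embryos the differences were 0.55 (adjusted p = 0.250) and 0.73 (adjusted p = 0.118). With median-of-ratios scaling the gpr-1 difference turned to -0.25 in both embryo stages, and that of gpr-2 was 0.03 in 1-cell and -0.08 in 2-cell embryos.

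gpr-2 rose in sperm against each other stage. The difference was 2.17 from oocytes (SE 0.30, interval 1.47 to 2.87, adjusted p = 4.0e-04), 1.43 from 1-cell embryos (SE 0.30, interval 0.72 to 2.13, adjusted p = 0.00326) and 1.44 from 2-cell embryos (SE 0.30, interval 0.74 to 2.14, adjusted p = 0.00311). In mean RPKM this was 53.4 ± 0.530 (SD, n = 2) against 11.1 ± 0.530 (SD, n = 2) in oocytes, a ratio of 4.82. These 3 calls held under every alternative tried, with a lowest log2 value of 1.63 against oocytes. Against 1-cell and 2-cell embryos the lowest values, 1.15 and 1.11, were those of gpr-1 and gpr-2 summed, not of gpr-2 alone.

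gpr-1 in sperm differed from oocytes by 0.93 (SE 0.32, interval 0.19 to 1.67, adjusted p = 0.0337), just under the size required for a call, and from 1-cell embryos by 0.48 (adjusted p = 0.208) and 2-cell embryos by 0.38 (adjusted p = 0.314). The ratio of gpr-2 to gpr-1 was 1.20 and 1.34 in oocytes, 1.52 and 1.62 at the 1-cell stage, 1.27 and 1.63 at the 2-cell stage, and 2.80 and 3.31 in sperm. Both sperm ratios were above the other 6. By mean RPKM the order was sperm, 2-cell embryo, 1-cell embryo and oocyte for gpr-1, with no neighbours called different, and sperm, 1-cell embryo, 2-cell embryo and oocyte for gpr-2, where only sperm and its neighbour were.

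Summed over both genes, which does not depend on how shared reads were divided, RPKM were 19.6 and 20.0 in oocytes, 33.9 and 29.4 at the 1-cell stage, 32.5 and 32.4 at the 2-cell stage, and 73.0 and 69.1 in sperm. The sum was higher in sperm than in oocytes by 1.79 (SE 0.30, adjusted p = 0.00103), than in 1-cell embryos by 1.15 (SE 0.30, adjusted p = 0.00869) and than in 2-cell embryos by 1.11 (SE 0.30, adjusted p = 0.0100). The sum in 1-cell embryos differed from oocytes by 0.64 (SE 0.30, adjusted p = 0.153) and was not called.

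lin-5 had its highest mean RPKM in embryos. It stood at 32.9 and 34.7 RPKM in oocytes, 46.3 and 76.8 at the 1-cell stage, 51.1 and 84.7 at the 2-cell stage, and 39.9 and 19.6 in sperm. All 4 embryo libraries were above all oocyte and sperm libraries, and the sperm libraries lay on either side of the oocyte libraries. The mean was 33.8 ± 1.28 (SD, n = 2) in oocytes, 61.5 ± 21.6 (SD, n = 2) in 1-cell embryos and 67.9 ± 23.8 (SD, n = 2) in 2-cell embryos.

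Neither embryo stage passed the test against oocytes for lin-5: the difference was 0.80 (SE 0.46, interval -0.27 to 1.87, adjusted p = 0.250) in 1-cell and 0.94 (SE 0.46, interval -0.13 to 2.01, adjusted p = 0.178) in 2-cell embryos. With median-of-ratios scaling these differences were 0.05 and 0.09. As with goa-1, the library numbered 2 was the higher at both embryo stages, 1.66 times that numbered 1. Sperm differed from oocytes by -0.26 (SE 0.46, interval -1.33 to 0.81, adjusted p = 0.646), from 1-cell embryos by -1.06 (adjusted p = 0.0696) and from 2-cell embryos by -1.20 (SE 0.46, interval -2.28 to -0.13, adjusted p = 0.0451). Its order by mean RPKM, 2-cell embryo, 1-cell embryo, oocyte and sperm, had no neighbours called different. The difference of sperm from 2-cell embryos was called, and that call was lost in 10 of 20 alternatives. Among these were the fits without 2-cell replicate 2 (log2 -0.84), without sperm replicate 2 (log2 -0.71) and without either oocyte library. Median-of-ratios (log2 -0.76) and quantile scaling (log2 -0.72) ended it too.

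**Figure D2:**
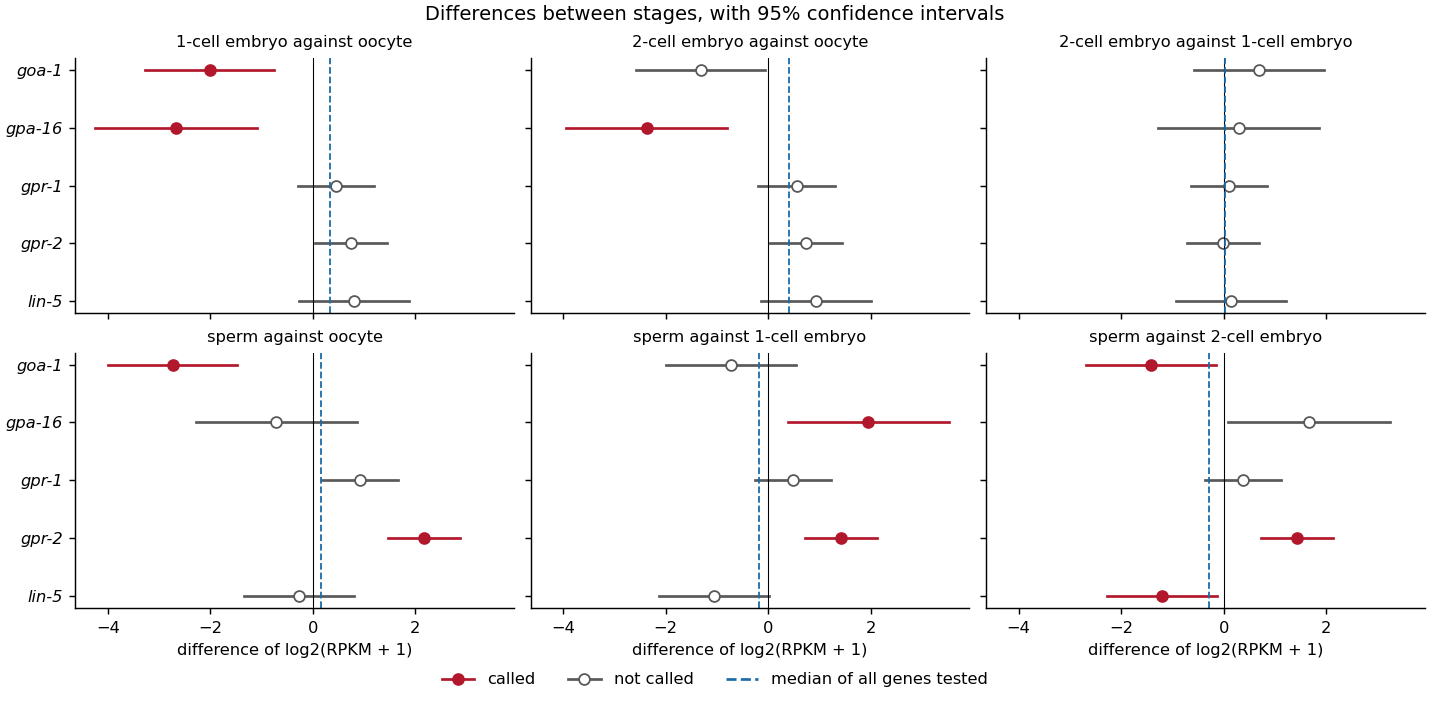
Difference of log2(RPKM + 1) between groups (horizontal axis) for each of the 5 genes in each of the 6 comparisons, with 95% intervals from limma; filled points were called. The alpha subunits lie below 0 in both embryo stages against oocytes, at -2.01 and -2.67 in 1-cell embryos, and gpr-2 lies above 0 in sperm against all 3 other groups.

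The share of all tested genes with the same separation stands beside each count. Against oocytes the 1-cell libraries lay wholly above for 3 of the 5 genes and wholly below for 2, where 53.3% and 22.1% of tested genes did, and the 2-cell libraries did so for the same counts, against 55.8% and 20.5%. Of the 5 genes, 2 were called in 1-cell embryos and 1 in 2-cell embryos, against 23.0% and 21.6% of tested genes called in either direction. Between the embryo stages the libraries of every one of the 5 genes overlapped, as did those of most genes, since 9.39% lay wholly higher and 6.81% wholly lower.

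Sperm lay wholly above oocytes for 2 of the 5 genes and wholly below for 2, where 46.6% and 40.2% of tested genes did. Against 1-cell embryos sperm lay wholly above for 3 and wholly below for 1, against 40.3% and 42.9% of tested genes. Against 2-cell embryos it was 3 and 2, against 39.7% and 45.1%. The numbers called were 2, 2 and 3 of the 5, where 61.3%, 68.5% and 69.4% of all tested genes were called in either direction.

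The partners of the pulling complex were also set against each other within each library, where RPKM, being per length, compare transcript levels. No ratio was tested between stages. The ratio of goa-1 to the summed gpr genes was 6.84 and 7.09 in oocytes, 0.619 and 1.82 at the 1-cell stage, 1.13 and 2.53 at the 2-cell stage, and 0.333 and 0.236 in sperm. Both oocyte ratios were above the other 6, and the embryo stages overlapped. The ratio of lin-5 to goa-1 was 0.245 and 0.244 in oocytes, 2.21 and 1.44 at the 1-cell stage, 1.39 and 1.04 at the 2-cell stage, and 1.64 and 1.20 in sperm. Both oocyte ratios were below the other 6, which overlapped between stages. goa-1 was the most abundant of the 5 transcripts in both oocyte libraries, lin-5 in all 4 embryo libraries.

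**Figure D3:**
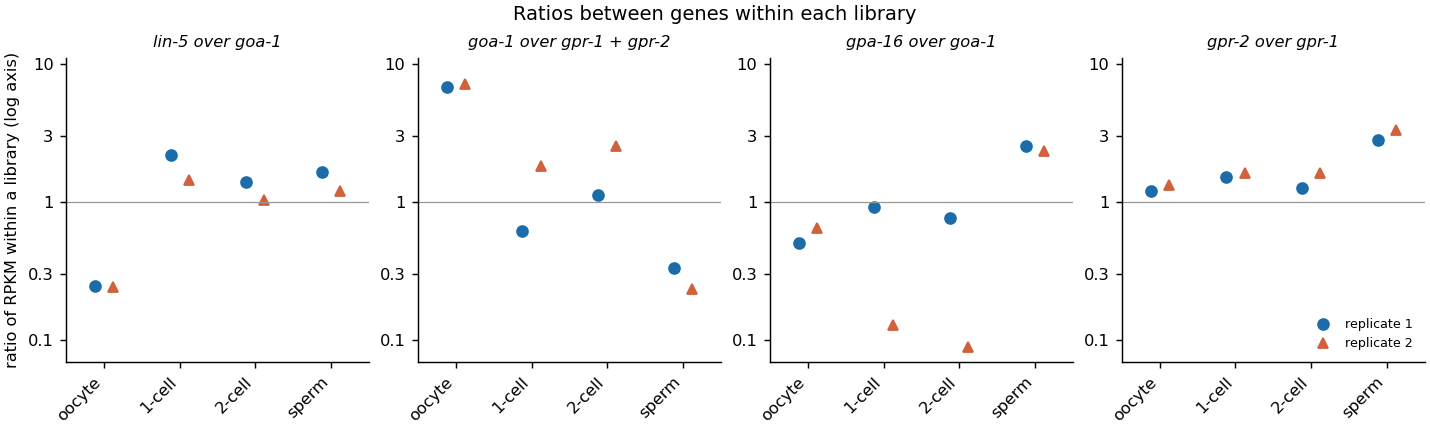
Within-library ratios of RPKM (vertical axis, log scale) between members of the complex in the 8 libraries, grouped by stage. The ratio of goa-1 to the summed gpr-1 and gpr-2 is 6.84 and 7.09 in oocytes and at most 2.53 elsewhere, and the ratio of gpr-2 to gpr-1 is highest in sperm, at 2.80 and 3.31.

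Of the other 24 subunits of heterotrimeric G proteins, 8 passed the filter. gpb-1, the Gbeta subunit that pairs with GOA-1 and GPA-16, stood at 263 and 194 RPKM in oocytes, 17.7 and 18.1 at the 1-cell stage, 23.0 and 36.3 at the 2-cell stage, and 51.0 and 55.0 in sperm. It fell in all 3 against oocytes, with a difference of -3.58 at the 1-cell stage (SE 0.35, adjusted p = 0.00566), -2.92 at the 2-cell stage (SE 0.35, adjusted p = 0.00688) and -2.07 in sperm (SE 0.35, adjusted p = 0.00115). The 1-cell call held under all 12 settings that kept both libraries of each compared group. It was lost without either oocyte library, as was every other call of the 4 lists described here between 1-cell embryos and oocytes. Nearly all calls over all tested genes in that comparison were lost in those fits as well.

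gpc-2, the Ggamma subunit of the early embryo, went the other way. It stood at 173 and 135 RPKM in oocytes, 389 and 786 at the 1-cell stage, 420 and 621 at the 2-cell stage, and 54.1 and 94.1 in sperm. It was 1.85 higher in 1-cell embryos than in oocytes (SE 0.46, adjusted p = 0.0270), where 17% of all genes were called higher, but 7 of the 12 settings ended that call, among them all 3 scalings and the removal of the trend with transcript length. In 2-cell embryos it was 1.74 higher (SE 0.46, adjusted p = 0.0352), where 16.4% of genes were, and 6 of the 12 settings ended this call too, again with all 3 scalings among them.

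egl-30, the Gq alpha subunit, was the third called subunit in 1-cell embryos, lower by 1.64 (SE 0.36, adjusted p = 0.0187). Over the 8 tested subunits 1 was called higher and 2 lower in 1-cell embryos, where 17% and 5.92% of all tested genes were. Their median difference was 0.19 against 0.35 over all genes. In sperm 4 were called higher than in oocytes and 1 lower, with a median of 1.01 against 0.16, where 36.7% and 24.6% of all tested genes were. The 4 were low throughout: gpa-15, gpa-17, gsa-1 and gpc-1, of which gsa-1, the Gs alpha subunit, rose from 0.0856 and 0.0844 RPKM to 2.94 and 3.39. None of these 4 was called with a pseudocount of 5, with quantile normalization or with the trend in length and level removed. Of them gpa-17, gsa-1 and gpc-1 reached 1 RPKM only in sperm and so passed the filter through that group alone. Their calls in sperm and the median over the tested subunits are therefore not independent of the filter. Of 8 tested neuron markers 5 were called higher in sperm too, and 2 lower, with a median of 1.74. rab-3, a synaptic vesicle GTPase, went from 0.0718 and 0.0916 RPKM to 5.20 and 6.84. Like it, unc-13, egl-21 and snt-1, the last named after its values were seen, reached 1 RPKM only in sperm. These calls and the marker median are therefore not independent of the filter either. The summed RPKM of the neuron list went the other way, at 116 and 151 in sperm and 411 and 489 in oocytes. The part of such tissue in the low subunits was not tested.

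Of the 16 regulators of G proteins 12 were tested. In 1-cell embryos limma called 1 of them, ags-3, a GoLoco protein, which was lower by 1.27 (SE 0.33, adjusted p = 0.0304). That call was lost in 6 of the 8 fits that left out 1 library and in the fit of only the compared groups. None was called higher, and of all tested genes 17% were called higher and 5.92% lower. At an unadjusted p under 0.05, 1 regulator was higher and 2 lower, and the median was -0.05 against 0.35 over all genes. ric-8 stood at 15.4 and 21.7 RPKM in oocytes, 10.1 and 6.96 at the 1-cell stage, 14.6 and 8.40 at the 2-cell stage, and 8.46 and 5.05 in sperm. Its 1-cell values lay below the oocyte values without passing the test.

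In sperm 6 of the 12 regulators were lower than in oocytes and none higher, also at an unadjusted p under 0.05, with a median of -1.21 against 0.16 over all genes. Of all tested genes 24.6% were called lower and 36.7% higher. They include ric-8, lower by 1.35 (SE 0.43, adjusted p = 0.0243), ags-3, and 4 RGS proteins, which speed GTP hydrolysis. rgs-7 stood at 31.2 and 34.1 RPKM in oocytes, 12.5 and 24.0 at the 1-cell stage, 16.2 and 27.7 at the 2-cell stage, and 1.84 and 0.404 in sperm, a difference of -4.07 from oocytes (SE 0.50, adjusted p = 1.94e-04). rgs-9, rgs-11 and rgs-10 fell too, with differences of -5.48, -4.98 and -3.27.

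All 19 genes of dynein, dynactin and their cofactors were tested. In 1-cell embryos 7 were called higher than in oocytes and 1 lower, with a median of 0.93 against 0.35 over all genes, of which 17% were called higher and 5.92% lower. The higher ones were led in level by the dynein light chains dlc-1 (1.39, SE 0.36, adjusted p = 0.0286) and dylt-1 (2.03, SE 0.33, adjusted p = 0.00914). With the trend of the difference with transcript length removed, only dnc-2, the dynamitin subunit of dynactin, was still called among the 7. It stood at 32.5 and 34.0 RPKM in oocytes and at 148 and 123 in 1-cell embryos.

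The lower one was lis-1, a dynein regulator homologous to LIS1 of mammals, named here after its values were seen. It stood at 99.0 and 103 RPKM in oocytes, 25.7 and 22.6 at the 1-cell stage, 29.7 and 31.9 at the 2-cell stage, and 42.4 and 25.9 in sperm. It was lower in 1-cell embryos by 2.02 (SE 0.34, adjusted p = 0.00965), which held under all 12 settings. 2-cell embryos gave 7 higher and 1 lower again, where 16.4% and 5.17% of all tested genes were.

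In sperm 10 of the 19 genes were lower than in oocytes and 2 higher, with a median of -1.37 against 0.16, where 24.6% of all tested genes were called lower and 36.7% higher. With the trend in length and level removed, 3 of the list were lower and 4 higher and the median was 0.11 against -0.07 over all genes. Under that setting 3351 of the 10988 tested genes with a length were lower and 2836 higher. dlc-1 fell from 1294 and 1072 RPKM to 236 and 178, by 2.52 on the log2 scale (SE 0.36, adjusted p = 4.43e-04). The 2 higher genes, named after their values were seen, encode large subunits. dhc-1, the dynein heavy chain, stood at 10.9 and 14.2 RPKM in oocytes and 87.5 and 63.5 in sperm (log2 2.49, SE 0.33, adjusted p = 3.32e-04), and dnc-1, the p150 subunit of dynactin, rose by 1.81 (SE 0.36, adjusted p = 0.00286).

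The 28 polarity and spindle positioning regulators were all tested. In 1-cell embryos 7 were called lower than in oocytes and none higher, where 5.92% of all tested genes were called lower and 17% higher. At an unadjusted p under 0.05, 10 were lower and 1 higher, and the median was -0.77 against 0.35. csnk-1, a casein kinase that limits GPR-1/2 at the cortex, stood at 124 and 113 RPKM in oocytes, 12.8 and 19.2 at the 1-cell stage, 19.7 and 27.6 at the 2-cell stage, and 46.7 and 36.1 in sperm. It fell by 2.84 in 1-cell embryos (SE 0.36, adjusted p = 0.00664). par-2, which marks the posterior cortex, fell by 2.67 (SE 0.54, adjusted p = 0.0156), gsk-3, a Wnt pathway kinase, by 4.04 (SE 0.55, adjusted p = 0.00696), and klp-7, a kinesin that depolymerizes microtubules, by 3.09 (SE 0.41, adjusted p = 0.00684).

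par-4, cmd-1 and zyg-8 were the other lower genes of the list, the last named after its values were seen. Against oocytes 6 of the 28 were lower in 2-cell embryos, where 5.17% of all tested genes were. In sperm 15 were lower and 1 higher, where 24.6% of all tested genes were lower and 36.7% higher. With the trend in length and level removed, 7 were lower and 6 higher, where 3351 of the 10988 tested genes with a length were lower and 2836 higher. The 1 higher gene was aspm-1, which works with LIN-5 at the meiotic spindle poles and is named after its value was seen (log2 2.01, SE 0.46, adjusted p = 0.00567). par-5, a 14-3-3 protein and the most abundant gene of the list, stood at 2158 and 1945 RPKM in oocytes and 721 and 444 in sperm. Its difference of -1.85 (SE 0.37, adjusted p = 0.00270) turned to 0.30 with the trend in length and level removed. Between the embryo stages limma called none of the genes of the 4 lists, and none had an unadjusted p under 0.05.

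**Figure D4:**
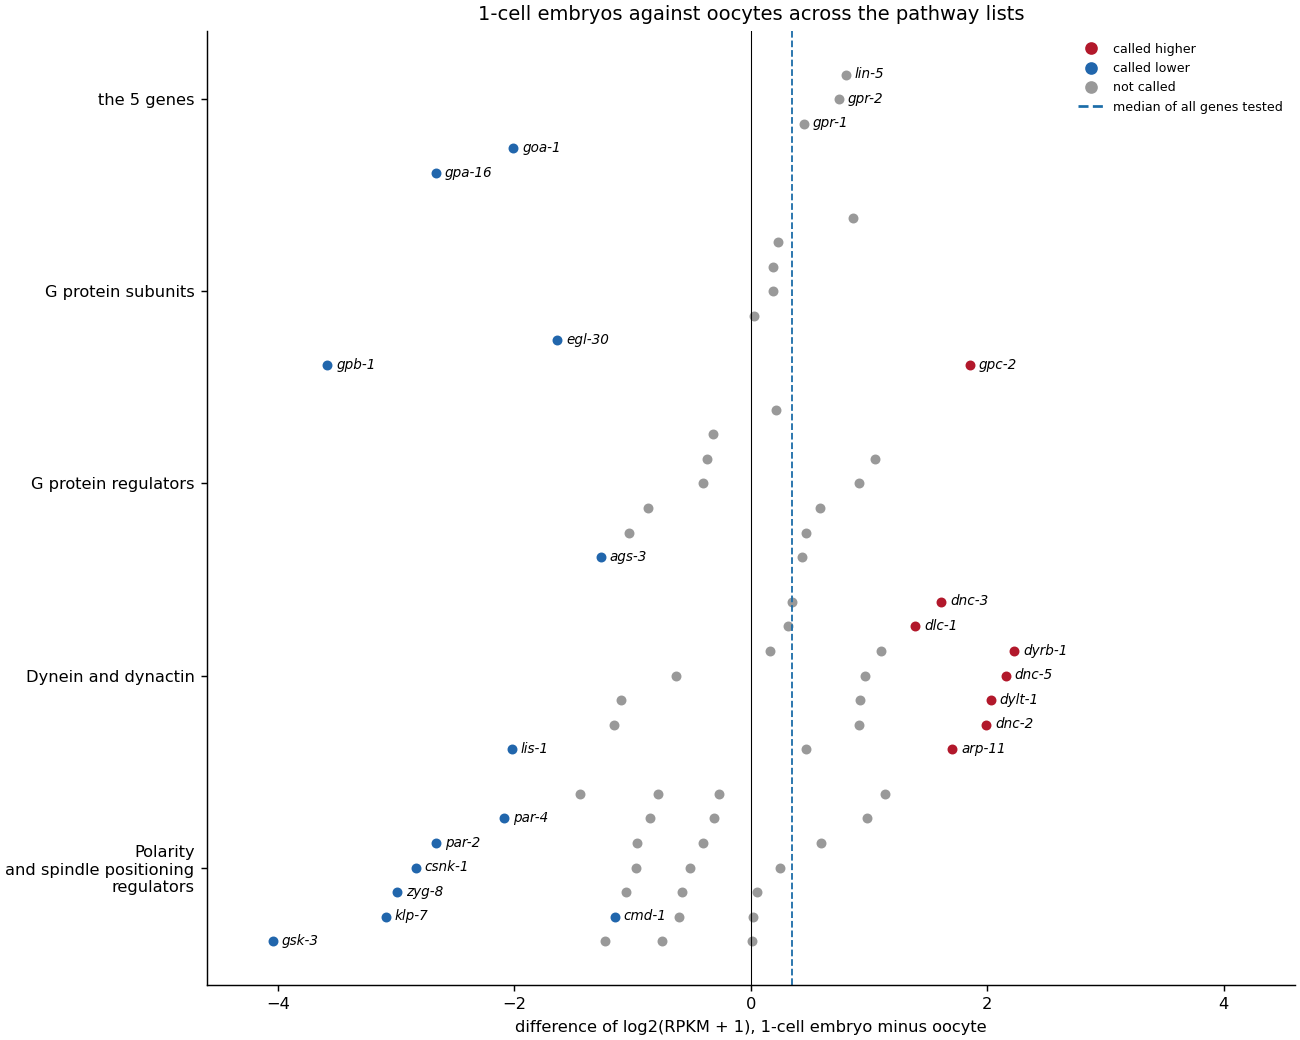
Difference of log2(RPKM + 1) of 1-cell embryos from oocytes for the 5 genes and the tested genes of the 4 lists. Each point is a gene, called genes are marked by colour, and a line marks the median of all tested genes. Polarity and spindle positioning regulators have a median of -0.77 in 1-cell embryos against 0.35 over all genes, and gpb-1 lies lowest among the subunits, at -3.58.

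Profiles were also compared over the 8 libraries, by the root mean square difference of log2(RPKM + 1) after each profile was centred on its mean, among the 6861 genes that averaged 10 RPKM or more. The closest genes to goa-1 were F33E11.3 at 0.21, Y92H12BR.3 at 0.22 and pig-1 at 0.23, and those to gpa-16 were K02F3.2 at 0.23, rabx-5 at 0.25 and Y51F10.9 at 0.26. For gpr-1 they were hda-6 at 0.13, lin-9 at 0.17 and rbm-5 at 0.18, for gpr-2 nex-2 at 0.17, cyk-1 at 0.18 and oatr-1 at 0.19, and for lin-5 Y37E11AM.3 at 0.06, let-858 at 0.10 and ddb-1 at 0.13. Among the 5 genes themselves gpr-1 and gpr-2 were nearest, at 0.49, where gpr-2 ranked 374th from gpr-1. goa-1 and gpa-16 were 1.55 apart. These distances describe 8 libraries of 4 groups and were not tested.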

How the data were processed

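Polyadenylated RNA was sequenced in 8 libraries, 2 in each of 4 groups, which were taken from the sample titles. The values are RPKM that the authors deposited for 21774 genes. BWA is named as a tool, without a version, per the submitters' processing notes. The genome build, annotation and read totals were not given in the sources used here, so no coordinates are printed. The library preparation in the labels does not keep strand.

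RPKM were used as deposited, as log2(RPKM + 1). Genes that reached 1 RPKM in 2 or more libraries were kept. All 4 groups were fitted in one model with limma 3.58.1 in R 4.3.3, with a variance trend and a two-sided moderated test, and p-values were adjusted by Benjamini-Hochberg within each of the 6 comparisons over 11935 genes. Names were matched to RefSeq WBcel235 for 18735 genes, and transcript lengths came from the WBcel235 annotation. Alternatives were other pseudocounts, filters, scalings and fits, removal of the trend with transcript length, the replicate block and leaving out each library.

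The 5 genes, and the lists of G protein subunits, regulators, dynein genes, polarity genes and tissue markers, were chosen with earlier results of these data known. Besides the 5 genes, up to 6 called genes of a list by mean RPKM, up to 3 more by mean RPKM, and the 3 nearest profiles of each gene were named; any other gene is said to be named after its values were seen.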

Additional observations from a re-analysis of the deposited data

How the results depend on the processing

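The calls of gpr-2 in sperm against the 3 other groups and of goa-1 in sperm against oocytes held under every alternative. The direction of goa-1 and gpa-16 in both embryo stages against oocytes held throughout; their calls did not. Of the 2 genes called in 1-cell embryos against oocytes, 1 was called in a fit of only the compared groups, and 0 with no filter, with the length and level trend removed or with no sperm libraries in the fit; leaving out 1 library gave 0 to 2. With the trend of length alone removed both calls held. The 1 gene called in 2-cell embryos against oocytes became 0 under those same 4 settings, and 0 to 1 when 1 library was left out. In sperm against 1-cell embryos 2 genes became 1 with no filter, and 1 to 3 when 1 library was left out. In sperm against 2-cell embryos 3 became 1 with no filter and 1 with no oocyte libraries in the fit, and 1 to 4 when 1 library was left out. The trend in length and level and the fits with no sperm or no oocyte libraries were chosen after seeing the data. The cause of these changes was not tested, and fits with fewer libraries have fewer degrees of freedom. Without either oocyte library nearly all calls over all tested genes between embryos and oocytes were lost, not only those of these genes.

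Some differences that were not called changed sign. With median-of-ratios scaling gpr-1 was at -0.25 in both 1-cell and 2-cell embryos against oocytes and gpr-2 at -0.084 in 2-cell embryos. Between the embryo stages gpr-1 was at -0.0147 under quantile normalization and -0.00043 without the length trend, gpr-2 at 0.0603 with a common sum and 0.0382 when summed with gpr-1, and lin-5 at -0.0174 with the length trend and -0.0311 with the length and level trend removed. Leaving out 1 library gave -0.61 to 1.20 for gpa-16, -0.0169 to 0.226 for gpr-1, -0.0939 to 0.0681 for gpr-2 and -0.22 to 0.50 for lin-5. With the length and level trend removed, lin-5 was at 0.54 in sperm against oocytes and goa-1 at 0.24 in sperm against 1-cell embryos; leaving out 1 library gave -0.76 to 0.23 for lin-5 in the former.

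Over all genes, 2033 were called higher and 707 lower in 1-cell embryos against oocytes as deposited, 947 and 960 with a common sum, 506 and 1344 with median of ratios (all-gene median moved by -0.32), 554 and 884 after quantile normalization and 603 and 733 after removal of the length trend. In 2-cell embryos against oocytes the 1960 and 617 became 993 and 744, 358 and 1279, 457 and 828, and 526 and 716. In sperm against oocytes the 4375 and 2938 became 2807 and 4702 under quantile normalization, 3452 and 3682 without the length trend and 3987 and 3980 with a common sum. With quantile normalization sperm against 1-cell embryos went from 4212 and 3960 to 3094 and 4632, and sperm against 2-cell embryos from 4150 and 4128 to 3091 and 4667.

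Replicate numbers do not pair the samples by the labels, and same-numbered deviations correlated at 0.877 between the embryo stages but at -0.17 between 1-cell embryos and oocytes. With the replicate block 2, 0, 1, 2, 2 and 4 of the 5 genes were called in the 6 comparisons, the added one being gpa-16 in sperm against 2-cell embryos (adjusted p = 0.0223).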
